A study of Drosophila melanogaster with 12 samples.

Results

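The 9 genes described here act on messenger RNA in the cytoplasm: pAbp, Dcp2, Dcp1, Edc3, me31B, tral, pcm, Smg6 and rin. They were taken by name and not by a threshold on any value, though with earlier results of these data known, from the 17469 genes of the gene table, and each of the 9 had reads in all 12 libraries. What was measured is not their mRNA but the small RNAs held by the protein Piwi and counted to these genes. The strand setting and the treatment of reads with several sites are not given. Whether each was cut from the gene's own transcript therefore cannot be told. All 9 passed the minimum used for testing, 1 RPM in at least 3 libraries, where RPM are reads scaled to 1000000 reads of the library.

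An mRNA carries a poly(A) tail coated by poly(A)-binding protein, which pAbp encodes. Decay usually begins when the tail is shortened; the cap is then removed by Dcp2 with its activators, and the exonuclease Pacman, the product of pcm, digests the body of the transcript. Decapping factors gather with the helicase Me31B in granules called P-bodies, and stress granules form around Rasputin, the product of rin and the fly G3BP. Piwi-interacting RNAs (piRNAs) guide Piwi to silence transposons, and in the somatic cells of the fly ovary they are cut from long transposon-rich precursors and also from the transcripts of many protein-coding genes. Armitage (Armi) is an RNA helicase that brings such transcripts to the mitochondrial surface, where Daedalus (Daed) resides and the endonuclease Zucchini cuts them.

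All 12 libraries came from ovarian somatic cells (OSC), a cultured Drosophila melanogaster line derived from the ovary, and they form 4 groups of 3. In the first group Daed was knocked down by RNAi and replaced from a plasmid by Flag-Daed deltaSAM, named for a deletion of its SAM domain. In the second the same knockdown was rescued with Flag-Daed WT. In the third Armi was knocked down and replaced by Armi KEE-Flag, a variant whose name the labels do not spell out, and in the fourth by Armi WT-Flag. RNAi ran for 48 h before plasmids and siRNA were introduced together, and cells were harvested 48 h later. The proteins were thus supplied from transfected plasmids in a knocked-down line, and no library of cells without a knockdown was part of the comparison. Piwi was immunoprecipitated, RNAs of 20 to 40 nt were taken from a gel, and ribosomal RNA was removed from the library. Nothing in the labels says that replicates were separate cultures, so p-values measure the spread between these libraries, which may be technical.

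Library sizes were 1701393 to 1836515 reads with deltaSAM, 1396369 to 1961721 with Daed WT, 3697324 to 3995009 with KEE and 2335292 to 3828687 with Armi WT. Genes of the table took 58.0 ± 0.598% of the library with deltaSAM, 50.2 ± 0.813% with Daed WT, 79.5 ± 0.251% with KEE and 63.4 ± 1.32% with Armi WT (SD, n = 3 each). Replicate 3 of deltaSAM and replicate 3 of Armi WT stood apart from their own groups. A chi-square statistic per degree of freedom over genes, which is 1 for sampling noise alone, reached 4.94 and 5.33 for the first and 5.93 and 5.73 for the second, against 1.22 to 2.18 for all other pairs of replicates. Of the 6 somatic marker genes all had reads, and they summed to 36555 to 39051 RPM with deltaSAM, 33392 to 37309 RPM with Daed WT, 22707 to 23188 RPM with KEE and 34841 to 36398 RPM with Armi WT. The 5 germline markers summed to 13.3 to 34.2 RPM over all libraries, with vas at most at 4.97 RPM, and the 2 fat body markers to 0 to 2.76 RPM. The 3 blood markers summed to 53.3 to 66.1 RPM with KEE and 30.4 to 39.2 RPM with Armi WT, and to at least 26.0 RPM with deltaSAM and at most 44.1 RPM with Daed WT, with Hml at most at 0.522 RPM. The somatic sum was thus lowest and the blood sum highest with KEE, and their part in the results below was not tested. These sums count small RNAs held by Piwi and not marker mRNA, so they are no direct measure of cell types. Of the somatic markers, flam averaged 8702 RPM with KEE and 20852 RPM with Armi WT, and tj 8669 and 12911 RPM in the same groups. The other 4 were not lower with KEE, with zfh1 at 3359 RPM with KEE and 508 RPM with Armi WT, ct at 91.8 and 15.4 RPM, piwi at 517 and 513 RPM, and armi, the rescued gene itself, at 1553 and 878 RPM. The targeted genes cannot be used to check the knockdown here, since reads of the rescue plasmid and of the endogenous transcript cannot be told apart.

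The 9 genes together gave 2977, 2887 and 2707 RPM with deltaSAM, against 2516, 2599 and 2457 RPM with Daed WT. With KEE they gave 7562, 7918 and 8039 RPM, against 3460, 3575 and 3190 RPM with Armi WT. The summed level was therefore higher in every KEE library than in any other library. As a share of the reads in genes the sum was 0.492% with deltaSAM and 0.503% with Daed WT, and 0.986% with KEE and 0.537% with Armi WT. Dcp2 gave the most reads of the 9 in 3 groups, with 35.5% of the sum with deltaSAM, 41.6% with Daed WT and 42.1% with Armi WT. In KEE libraries pAbp did so, with 41.7%.

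**Figure D1:**
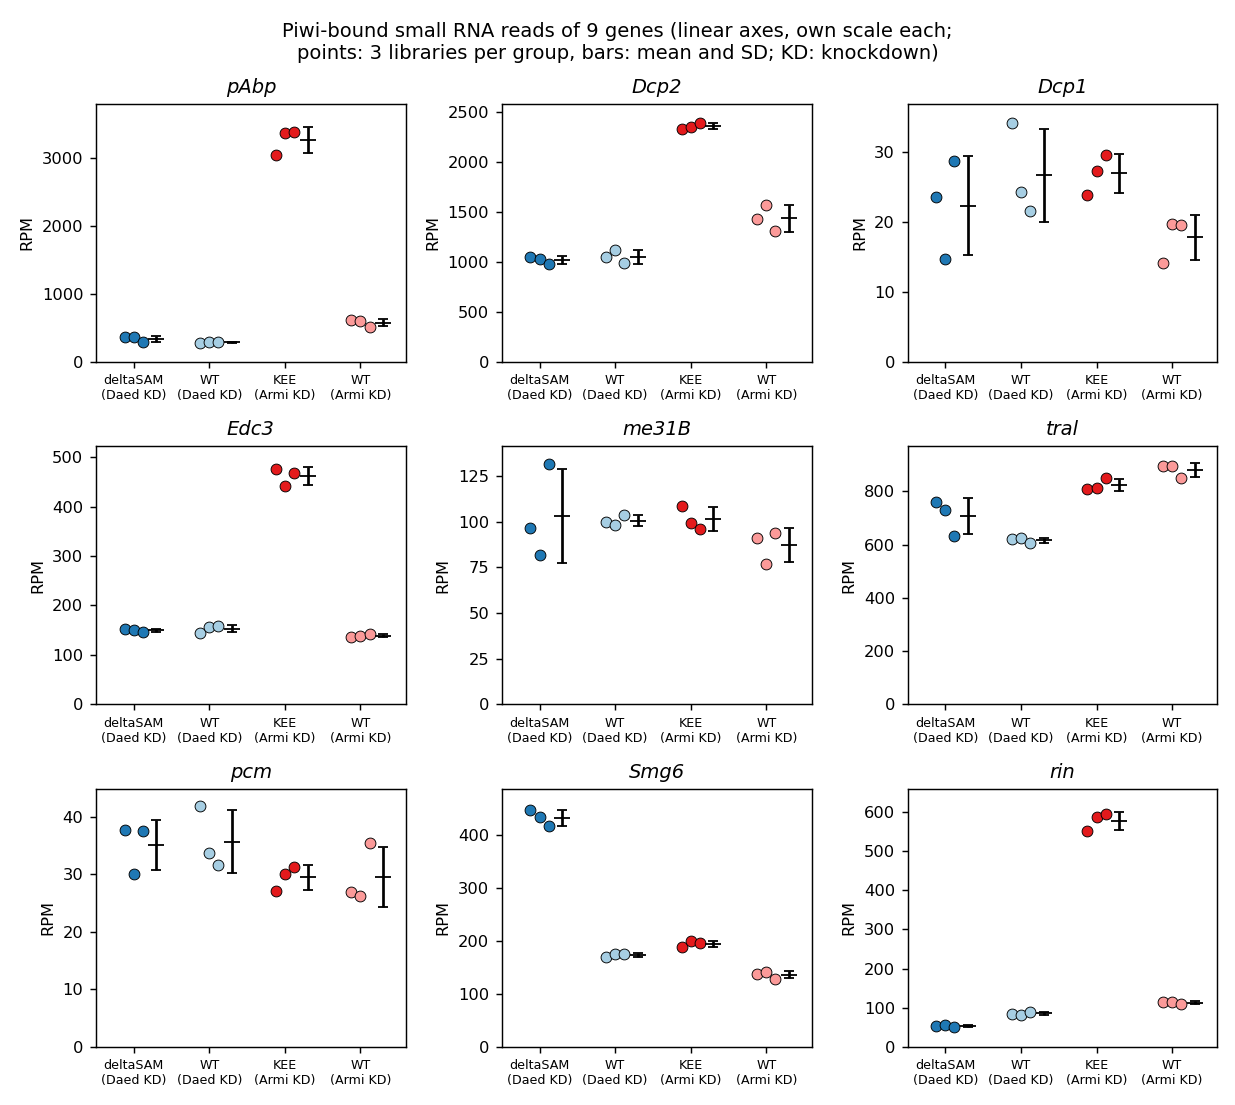
Level of each of the 9 genes in every library, in RPM on linear axes that start at 0 and have their own scale for each gene, with a point for each library and a bar for the mean and SD of each group of 3. The KEE points of pAbp, Edc3, Dcp2 and rin lie above those of every other group, and the deltaSAM points of Smg6 lie above the rest.

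Levels of different genes were compared per kilobase of gene span, introns included, since longer genes can give more reads. On that scale, in RPM per kb, Dcp2 had 132 with deltaSAM, 136 with Daed WT, 306 with KEE and 186 with Armi WT, and tral had 120.0, 104, 139.8 and 149 in the same groups. Both stood at or above the 98.0th percentile of all tested genes in each group. With KEE pAbp stood above both, at 459.6 RPM per kb, with 47.5 with deltaSAM, 39.9 with Daed WT and 80.5 with Armi WT. At the low end pcm had 4.71 to 5.70 RPM per kb in all groups. The place of rin differed between groups, with 7.10 RPM per kb with deltaSAM, 11.3 with Daed WT, 76.8 with KEE and 15.0 with Armi WT. The 9 genes thus spanned more than an order of magnitude per kilobase.

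With deltaSAM, small RNAs of 3 of the 9 genes rose and those of 1 fell relative to Daed WT. Smg6 rose 2.50-fold and rin fell to 0.629 of its Daed WT level; the calls for pAbp and tral were for changes under 1.2-fold. Over all 8246 genes tested, 36.2% passed the same test, 17.3% higher and 18.9% lower. The median log2 fold change of the 9 was -0.02, beside -0.10 over all tested genes. All 9 also passed a stricter filter, at least 10 RPM in at least 3 libraries. Of the 4279 genes that did, 1339 rose and 1080 fell with deltaSAM, with a median of 0.06. In 3 of the 9 the deltaSAM and Daed WT libraries did not overlap, and 40.6% of all tested genes showed this.

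With KEE, 6 of the 9 rose relative to Armi WT and none passed the test in the lower direction. The increases were 5.71-fold for pAbp, 5.12-fold for rin, 3.35-fold for Edc3, 1.64-fold for Dcp2, 1.51-fold for Dcp1 and 1.43-fold for Smg6. Of all tested genes 44.7% passed, 33.0% higher and 11.7% lower. The median log2 fold change was 0.58 for the 9 and 0.30 for all tested genes, so the genes at large lay higher with KEE on this scale. Among the 4279 genes with at least 10 RPM in at least 3 libraries, 2287 rose and 814 fell, with a median of 0.48. The 9 genes thus lay nearer to genes of like level than to all tested genes. At an unadjusted p under 0.05 no member was lower either, while edgeR with TMM factors and DESeq2 each placed 2 of them lower, tral and pcm. Of all 8246 tested genes these placed 1979 and 1671 lower. In 7 of the 9 the KEE and Armi WT libraries did not overlap, beside 58.0% of all tested genes.

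**Figure D2:**
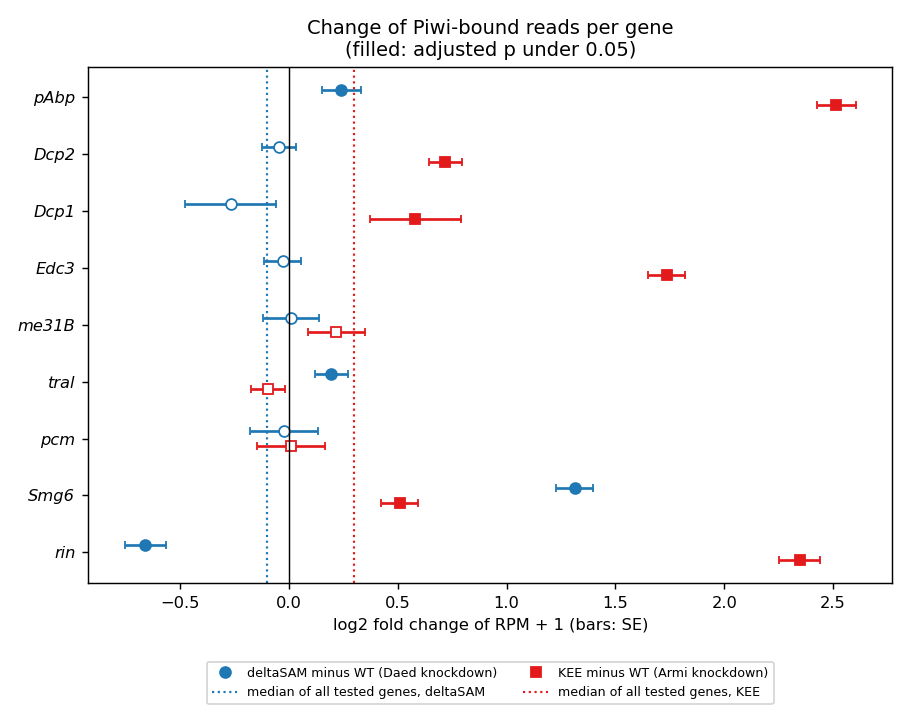
Log2 fold change of each of the 9 genes, deltaSAM over Daed WT and KEE over Armi WT, from the limma fit on log2(RPM + 1); bars are 1 standard error and filled points have an adjusted p under 0.05, and dotted lines mark the medians of all tested genes. pAbp, Edc3 and rin lie at 1.73 or more with KEE, and Smg6 is the only one above 1 with deltaSAM, at 1.31.

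The first member by role is pAbp, whose protein coats the poly(A) tail and links it to the translation machinery. It lies at 2R:18140078-18147191 on the dm6 assembly, and 3 small nucleolar RNA genes inside it had at most 1.66 RPM in any library. Small RNAs of pAbp stood at 3050.2, 3372 and 3387 RPM with KEE, against 616, 592 and 510.0 RPM with Armi WT. Every KEE library was far above every Armi WT library. The change was 2.51 ± 0.09 on the log2 scale (SE, limma adjusted p = 7.47e-19), rank 25 from the top of 8246 genes. Among all genes by level, pAbp ranked 23 with KEE and 214 with Armi WT.

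With deltaSAM, pAbp stood at 359.7, 365 and 288 RPM, against 275, 284 and 294 RPM with Daed WT. Replicate 3 of deltaSAM, which stood apart, fell within the Daed WT range, and the other 2 were above it. The change was 0.24 ± 0.09 (SE, limma adjusted p = 0.0377). It missed the threshold with the libraries scaled to the reads in genes (0.03, adjusted p = 0.814), in a fit of the 6 Daed libraries alone (adjusted p = 0.0942) and without a filter on low values (adjusted p = 0.0804). It also missed it without replicate 1 or 2 of Daed WT (0.22, adjusted p = 0.112, and 0.24, adjusted p = 0.0819), without replicate 1 or 2 of deltaSAM (0.19, adjusted p = 0.154, and 0.18, adjusted p = 0.172) and without replicate 2 of KEE (adjusted p = 0.0504). Without the 2 libraries that stood apart it was 0.35 (adjusted p = 3.03e-05).

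Dcp2, the enzyme that removes the cap, lies at 3L:15818734-15826423. Its small RNAs stood at 2326, 2348 and 2386 RPM with KEE, against 1426, 1569.8 and 1303 RPM with Armi WT. The groups did not overlap, and the KEE libraries were close together with a coefficient of variation of 1.29%, beside 9.31% in Armi WT. The change was 0.72 ± 0.08 (SE, limma adjusted p = 4.45e-09); it was 0.39 scaled to the reads in genes, 0.37 centred on the median gene and 0.29 with TMM factors or DESeq2, and passed the test in each. With deltaSAM the values were 1044, 1026 and 975 RPM, against 1046, 1120.2 and 981 RPM with Daed WT. These overlapped, and the change of -0.05 ± 0.08 did not pass the test (SE, limma adjusted p = 0.675); scaled to the reads in genes it was -0.26 (adjusted p = 0.00574).

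Dcp1, an activator that binds Dcp2, is a short gene at 2R:23888764-23890276, and it gave few reads, 27 to 118 in a library. A protein-coding neighbour, CG5597, shares 14 bases with it and had no reads. Dcp1 stood at 23.9, 27.3 and 29.5 RPM with KEE, against 14.1, 19.7 and 19.6 RPM with Armi WT. The lowest KEE library was above the highest Armi WT library by a few RPM. The change was 0.58 ± 0.21 (SE, limma adjusted p = 0.0237). It was 0.43 without replicate 1 of Armi WT (adjusted p = 0.148), 0.57 without replicate 2 of KEE (adjusted p = 0.0620) and 0.51 without replicate 3 of KEE (adjusted p = 0.0924). With deltaSAM, Dcp1 stood at 23.5, 14.7 and 28.7 RPM, against 34.2, 24.3 and 21.5 RPM with Daed WT, with wide overlap and a change of -0.27 ± 0.21 (SE, limma adjusted p = 0.336).

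Edc3 encodes an enhancer of decapping that binds the Dcp1 and Dcp2 complex. It lies at 3L:17525333-17529861 and holds a small nucleolar RNA gene with at most 0.545 RPM. Edc3 stood at 476, 442 and 469 RPM with KEE, against 136, 137 and 142 RPM with Armi WT. The gap between the groups was many times the spread within either. The change was 1.73 ± 0.09 (SE, limma adjusted p = 4.24e-16), rank 281 from the top. With deltaSAM it stood at 153, 149 and 147 RPM, against 144, 157 and 158 RPM with Daed WT. Those libraries overlapped, and the change was -0.03 ± 0.09 (SE, limma adjusted p = 0.821); scaled to the reads in genes it was -0.24 (adjusted p = 0.0295).

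Me31B, a DEAD-box helicase of P-bodies, is encoded by a short gene at 2L:10239341-10242172. Its small RNAs stood at 109, 99.3 and 96.1 RPM with KEE, against 91.4, 76.6 and 93.8 RPM with Armi WT. The groups did not overlap but came within a few RPM of each other. The change of 0.22 ± 0.13 did not pass the test (SE, limma adjusted p = 0.181); without the 2 libraries that stood apart it was 0.27 (adjusted p = 0.0421). With deltaSAM the values were 96.4, 81.7 and 132 RPM, against 99.9, 98.2 and 104 RPM with Daed WT. The highest deltaSAM value was in replicate 3, the library that stood apart, and the other 2 deltaSAM libraries were below every Daed WT library. The change was 0.01 ± 0.13 (SE, limma adjusted p = 0.966), and -0.18 without the 2 libraries (adjusted p = 0.208).

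Trailer hitch, a partner of Me31B in RNA granules, is encoded by tral at 3L:12515059-12520954. It stood at 810.1, 812 and 850.3 RPM with KEE, against 897, 896 and 848 RPM with Armi WT. The highest KEE library was just above the lowest Armi WT library, so the groups overlapped. The change was -0.09 ± 0.08 (SE, limma adjusted p = 0.344). With deltaSAM it stood at 762, 729.6 and 632 RPM, against 621, 623 and 604 RPM with Daed WT. No libraries overlapped, although replicate 3 of deltaSAM came close to Daed WT. The change was 0.20 ± 0.08 (SE, limma adjusted p = 0.0498), and it held in 8 of 24 alternatives. It was lost without any 1 of 10 libraries, among them replicate 1 of deltaSAM (0.14, adjusted p = 0.223), and held without replicate 3 of deltaSAM or replicate 3 of Armi WT.

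The last step of the pathway belongs to Pacman, the exonuclease that digests decapped RNA from the 5′ end. The gene pcm lies at X:19485759-19492011 and gave 44 to 125 reads in a library. It stood at 27.1, 30.0 and 31.3 RPM with KEE, against 26.9, 26.1 and 35.4 RPM with Armi WT, and the Armi WT values enclosed those of KEE. With deltaSAM it stood at 37.6, 29.9 and 37.5 RPM, against 41.8, 33.7 and 31.5 RPM with Daed WT. Neither change passed the test, with 0.01 ± 0.16 for KEE (SE, limma adjusted p = 0.965) and -0.02 ± 0.16 for deltaSAM (SE, limma adjusted p = 0.933). At this depth counting error alone was 9.45% to 13.0% of a library's value on average over each group, so small differences in pcm were not detectable.

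Smg6 encodes an endonuclease of nonsense-mediated decay, which cuts mRNAs with premature stop codons, and lies at 3R:25029429-25033465. It stood at 448, 434 and 417 RPM with deltaSAM, against 169.7, 176 and 175 RPM with Daed WT. The deltaSAM libraries, replicate 3 included, were more than double every Daed WT library. The change was 1.31 ± 0.09 (SE, limma adjusted p = 1.36e-12), rank 127 from the top of 8246 genes, and it held in 24 of 24 alternatives with 1.11 to 1.53 on the log2 scale. With KEE, Smg6 stood at 188, 199 and 195 RPM, against 138, 142 and 129 RPM with Armi WT. Those groups did not overlap either, and the change was 0.51 ± 0.09 (SE, limma adjusted p = 1.08e-05). This smaller change was lost where libraries were scaled to reads in genes (0.18, adjusted p = 0.0862), centred on the median gene (0.16, adjusted p = 0.175), or fitted with edgeR and TMM factors (0.09, adjusted p = 0.442) or DESeq2 (0.09, adjusted p = 0.469).

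Rasputin binds RNA and, with its partner Caprin, is a core protein of stress granules; rin lies at 3R:13647004-13654527. It stood at 53.5, 56.6 and 50.2 RPM with deltaSAM, against 84.1, 82.2 and 88.8 RPM with Daed WT. The libraries were well apart, and rin fell by 0.66 ± 0.09 on the log2 scale (SE, limma adjusted p = 2.18e-06). With KEE it stood at 552, 588 and 594 RPM, against 114, 116 and 109 RPM with Armi WT. The groups were again far apart, now with KEE above, and the change was 2.35 ± 0.09 (SE, limma adjusted p = 6.26e-18), rank 48 from the top. As deposited, rin alone of the 9 genes passed the test in opposite directions, and both calls held in 24 of 24 alternatives. Its level order was KEE, Armi WT, Daed WT and deltaSAM, with no overlap between neighbours.

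The zero point of these comparisons depends on the scale, and reads in genes took a different share of the library in each group. As deposited, the median log2 fold change of all tested genes was -0.10 with deltaSAM and 0.30 with KEE. Scaled to the reads in genes it was -0.30 and 0.00, centred on the median of genes in each library 0.11 and -0.05, and with TMM factors -0.01 and -0.05. With KEE, pAbp, rin, Edc3, Dcp2, Dcp1 and Smg6 lay above the median of all tested genes as deposited, and tral, pcm and me31B lay below it. With deltaSAM, rin and Dcp1 lay below that median and the other members above it. Under the alternative scalings tral with KEE passed the test as lower, at -0.42 scaled to the reads in genes (adjusted p = 2.91e-05), -0.45 centred on the median gene (adjusted p = 7.26e-05) and -0.52 with TMM factors (adjusted p = 5.64e-07). On 3 of the 4 other scalings, DESeq2 included, tral passed in opposite directions, as rin did, since with deltaSAM it was 0.41 centred (adjusted p = 0.000303), 0.31 with TMM factors (adjusted p = 0.00311) and 0.27 with DESeq2 (adjusted p = 0.00355), where its KEE value was -0.52 (adjusted p = 3.64e-11). With TMM factors pcm was lower with KEE too, at -0.41 (adjusted p = 0.0173). Dcp1 with KEE no longer passed under any of these 4, with 0.20 to 0.27. Under all 4 pAbp, Edc3, Dcp2 and rin passed, Dcp2 at the lower values given above.

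**Figure D3:**
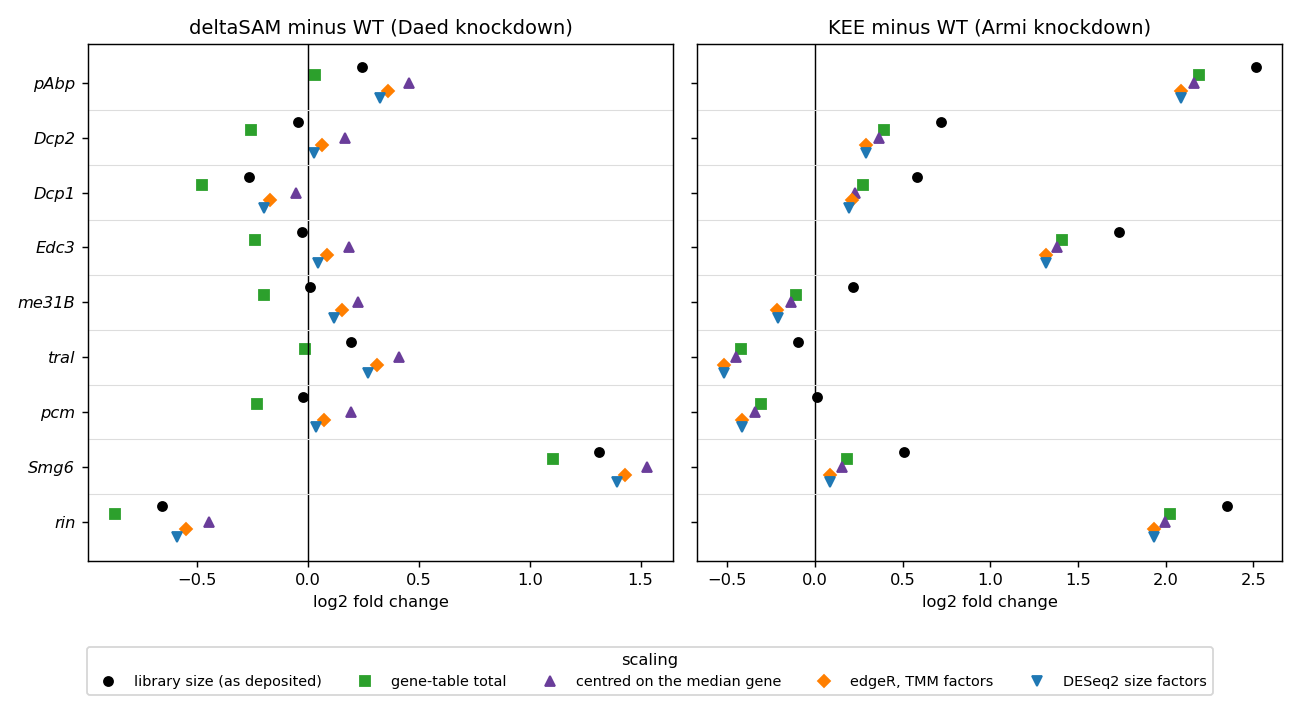
Log2 fold change of the 9 genes under 5 scalings of the libraries, deltaSAM over Daed WT on the left and KEE over Armi WT on the right, with a symbol for each scaling. Points of pAbp, Edc3 and rin stay above 1 with KEE and those of Smg6 above 1 with deltaSAM under all 5, while tral and pcm with KEE move from near 0 to below it.

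The difference between both effects was tested directly, as the KEE change minus the deltaSAM change in the same fit. It was positive for 5 of the 9 genes and negative for 2, where 40.4% of all tested genes passed, 29.4% higher and 11.0% lower. The median difference was 0.77 for the 9 and 0.44 for all tested genes. Among the 4279 genes with at least 10 RPM in at least 3 libraries the median was 0.48. Of those genes 2010 had a positive and 866 a negative called difference. The largest difference of the 9 was that of rin, at 3.01 ± 0.13 (SE, limma adjusted p = 2.77e-16), rank 6 from the top of all tested genes. It was 2.27 ± 0.13 for pAbp (adjusted p = 3.32e-14) and 1.76 ± 0.12 for Edc3 (adjusted p = 2.04e-12). For Smg6 the difference was -0.80 ± 0.12 (SE, limma adjusted p = 2.95e-06), its increase being larger with deltaSAM. These 4 differences held in 23 of 23 alternatives.

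The other 3 called differences were smaller or less steady. That of Dcp2 was 0.77 ± 0.11 (SE, limma adjusted p = 1.31e-06) and missed the threshold when centred on the median gene (0.20, adjusted p = 0.225), under TMM factors (0.23, adjusted p = 0.121) and with DESeq2 (0.27, adjusted p = 0.0569). That of Dcp1 was 0.85 ± 0.29 (SE, limma adjusted p = 0.0217). It was lost without replicate 1 of Daed WT (0.66, adjusted p = 0.0871), replicate 2 of deltaSAM (0.59, adjusted p = 0.0934), replicate 1 of Armi WT (0.70, adjusted p = 0.0797) or replicate 3 of KEE (0.78, adjusted p = 0.0573). It was also lost scaled to the reads in genes (0.75, adjusted p = 0.0602), centred on the median gene (0.28, adjusted p = 0.514), with TMM factors (0.38, adjusted p = 0.336) and with DESeq2 (0.39, adjusted p = 0.411). That of tral was -0.29 ± 0.11 (SE, limma adjusted p = 0.0354). As deposited it was lost without replicate 2 or 3 of Daed WT or 1 or 2 of deltaSAM. It was also lost without replicate 1 or 2 of Armi WT or of KEE, with values between -0.30 and -0.23 in all these. On the other scalings the tral difference was larger and passed, at -0.41 scaled to the reads in genes (limma adjusted p = 0.00260) and -0.86 centred (limma adjusted p = 1.02e-06). It was -0.83 under TMM factors (edgeR adjusted p = 1.04e-07) and -0.79 with DESeq2 (adjusted p = 5.95e-12). For me31B the difference was 0.21 ± 0.18 (SE, limma adjusted p = 0.392), and 0.40 without replicate 3 of deltaSAM (adjusted p = 0.0370). For pcm it was 0.03 ± 0.22 (SE, limma adjusted p = 0.931).

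The wild-type rescues differ both in the gene knocked down and in the rescue plasmid, which cannot be told apart, and the labels do not say whether these libraries were made together. Between Armi WT and Daed WT 4 of the 9 genes were higher and 1 was lower, where 25.3% of all tested genes passed, 18.9% higher and 6.35% lower. The median was -0.14 for the 9 and 0.03 for all tested genes. Among the 4279 genes with at least 10 RPM in at least 3 libraries, 1560 were higher and 474 lower, with a median of 0.19. The Armi WT and Daed WT libraries of 8 of the 9 did not overlap, beside 36.5% of all tested genes. The 573 ± 55.7 RPM of pAbp in Armi WT was 2.02 times its 284 ± 9.43 RPM in Daed WT (SD, n = 3 each), a log2 change of 1.00 ± 0.09 (SE, limma adjusted p = 4.55e-10). Smaller increases were called for tral, at 0.51 ± 0.08, for Dcp2, at 0.45 ± 0.08, and for rin, at 0.40 ± 0.09 (SE; limma adjusted p = 4.80e-06, 3.30e-05 and 0.00140). Smg6 was lower in Armi WT, at -0.35 ± 0.09 (SE, limma adjusted p = 0.00235).

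That comparison uses the same wild-type libraries as the variant comparisons, and it moved with the scale. Scaled to the reads in genes, only pAbp of the 9 remained higher in Armi WT, and Edc3, me31B, pcm, Dcp1 and Smg6 were lower. The genes at large moved the same way, with 858 higher and 1504 lower of 9249 tested on that scale. Their median there was -0.25, beside 0.03 as deposited. Dcp1, at -0.54 ± 0.21 as deposited (SE, limma adjusted p = 0.0548), passed in 11 of 24 alternatives, among them without replicate 3 of Daed WT (-0.68, adjusted p = 0.0305) and without replicate 2 or 3 of deltaSAM (adjusted p = 0.0273 and 0.0294).

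For each member the 2 genes whose level ran most alike over the 12 libraries were found among 2854 genes with a mean of at least 20 RPM, by Pearson's r of log2(RPM + 1). The 12 libraries share 4 group means and differ in depth, so these values are a description. The closest to pAbp was Trf2 (r = 0.999), with 315 RPM with deltaSAM, 279 with Daed WT, 1882 with KEE and 469.9 with Armi WT, followed by Vha16-1 (0.997). Those closest to rin were Hrb98DE and Msp300 (0.997 each), to Dcp2 Lk6 (0.997) and Tnpo (0.992), and to Edc3 CG4768 (0.993) and CG14194 (0.991). Clc (0.973) and Ubi-p5E (0.961) were closest to Smg6; Clc had 327 RPM with deltaSAM, 54.6 with Daed WT, 85.2 with KEE and 56.0 with Armi WT. Those closest to tral were Ephrin, with 0.98 to 2 digits, and Cds (0.963). For the 3 genes whose groups overlapped most the likeness was weaker, with RpS14a (0.836) and CG1622 (0.755) for me31B, lds (0.746) and CASK (0.731) for pcm, and narya (0.854) for Dcp1.

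A wider list of genes with related roles was drawn up by function. Of its 67 symbols 7 matched no gene of the table, 59 different genes were in the table, and 58 were tested; cup, a partner of the cap-binding protein, was at 0 in every library. With deltaSAM 20 of the 58 rose and 8 fell, where 17.3% of all tested genes rose and 18.9% fell; the median was 0.14, beside -0.10 over all tested genes. With KEE 31 rose and 4 fell, where 33.0% of all tested genes rose and 11.7% fell; the median was 0.63, beside 0.30. The difference between both effects was positive in 27 and negative in 8, beside 29.4% and 11.0% of all tested genes, and 19 were higher and 4 lower in Armi WT than in Daed WT, beside 18.9% and 6.35%. Without the 2 libraries that stood apart 21 rose and 9 fell with deltaSAM, and 30 rose and 4 fell with KEE. Of all 8246 tested genes 1456 rose and 1546 fell with deltaSAM without them, and 2662 rose and 918 fell with KEE.

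**Figure D4:**
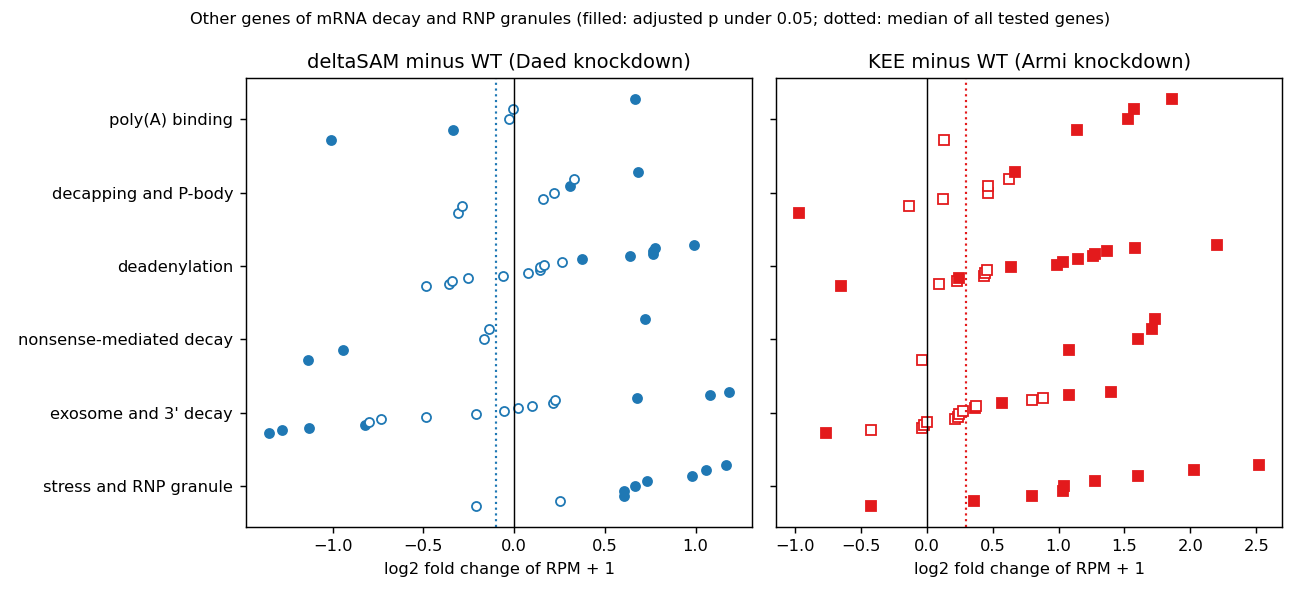
Log2 fold change of the 58 tested genes of the wider list by role, deltaSAM over Daed WT and KEE over Armi WT; a point is a gene, filled where the adjusted p is under 0.05, and dotted lines mark the medians of all tested genes. With KEE 31 points are filled above 0 and 4 below, and in the group of stress and other RNA granule proteins all 9 are filled.

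Genes of poly(A) binding and the poly(A) tail, besides pAbp, numbered 5. Of these 4 rose with KEE and none fell, while 1 rose and 2 fell with deltaSAM. Of all tested genes 33.0% rose and 11.7% fell with KEE, and 17.3% rose and 18.9% fell with deltaSAM. Atx2, whose protein Ataxin-2 binds poly(A)-binding protein, stood at 1020.6 ± 52.9 RPM with KEE and 281 ± 34.3 RPM with Armi WT (SD, n = 3 each), a change of 1.86 ± 0.10 (SE, limma adjusted p = 2.89e-15). With deltaSAM it stood at 175 ± 11.2 RPM and with Daed WT at 357 ± 51.0 RPM (SD, n = 3 each), a change of -1.01 ± 0.10 (SE, limma adjusted p = 4.20e-09). Its partner tyf changed in the same directions, by 1.14 with KEE and -0.34 with deltaSAM; the second was lost when centred on the median gene (-0.12), under TMM factors (-0.23), with DESeq2 (-0.26), without replicate 2 of Daed WT (-0.26) and without replicate 1 of deltaSAM (-0.26). Paip2, an inhibitor of poly(A)-binding protein, rose with both, by 1.52 with KEE and 0.66 with deltaSAM.

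Among 7 other decapping and P-body genes 1 rose and 1 fell with KEE, and 2 rose and none fell with deltaSAM, beside the same all-gene shares of 33.0% and 11.7% with KEE and 17.3% and 18.9% with deltaSAM. Patr-1, a decapping activator, fell with KEE to 759 ± 36.2 RPM, against 1489 ± 163 RPM with Armi WT (SD, n = 3 each), a change of -0.97 ± 0.08 (SE, limma adjusted p = 4.84e-11). With deltaSAM Patr-1 rose by 0.31, which was 0.10 when scaled to the reads in genes (adjusted p = 0.350). Ge-1, a decapping scaffold, rose by 0.67 with KEE and was lost under each of the 4 other scalings, with 0.26 to 0.36. The GW182 protein gene gw, which acts in microRNA silencing, rose by 0.68 with deltaSAM.

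Deadenylation genes numbered 16, of which 10 rose and 1 fell with KEE and 6 rose and none fell with deltaSAM. The shares over all tested genes were 33.0% higher and 11.7% lower with KEE, and 17.3% higher and 18.9% lower with deltaSAM. The increases with KEE included twin, the CCR4 deadenylase, at 90.3 ± 7.56 RPM with KEE and 18.8 ± 1.44 RPM with Armi WT (SD, n = 3 each), a change of 2.21 ± 0.16 (SE, limma adjusted p = 1.20e-12). PAN3, a subunit of the other deadenylase complex, rose by 1.58 with KEE, and pum, an RNA-binding repressor that recruits deadenylases, by 1.28. With deltaSAM pum rose by 0.78, smg, the repressor Smaug, by 0.76, and Tis11, which targets mRNAs with AU-rich elements, by 0.99.

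Of 5 genes of nonsense-mediated decay besides Smg6, 4 rose and none fell with KEE, whereas 1 rose and 2 fell with deltaSAM. Among all tested genes 33.0% rose and 11.7% fell with KEE, and 17.3% rose and 18.9% fell with deltaSAM. Smg5 rose by 1.73 with KEE, Upf2 by 1.71 and the helicase gene Upf1 by 1.08. Upf2 also rose with deltaSAM, to 90.8 ± 24.0 RPM, against 53.7 ± 6.84 RPM with Daed WT (SD, n = 3 each), a change of 0.72 ± 0.14 (SE, limma adjusted p = 0.000108). The exosome, exonuclease and related genes, among them some that act on stalled ribosomes, numbered 16. Of these 4 rose and 1 fell with KEE and 3 rose and 4 fell with deltaSAM, beside those same shares. The exosome helicase gene Mtr4 fell by 0.76 with KEE and rose by 1.08 with deltaSAM, where the exosome subunit gene Rrp6 rose by 1.19. With KEE, Dis3l2 rose by 1.08; pelo, which acts on stalled ribosomes, rose by 0.37, with -0.06 under both TMM factors and DESeq2.

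Stress granule and other RNA granule genes numbered 9, of which 8 rose and 1 fell with KEE and 7 rose and none fell with deltaSAM. In the whole set of tested genes 33.0% rose and 11.7% fell with KEE, and 17.3% rose and 18.9% fell with deltaSAM. The DEAD-box helicase gene bel stood at 416 ± 23.1 RPM with KEE and 71.6 ± 4.85 RPM with Armi WT (SD, n = 3 each), a change of 2.52 ± 0.10 (SE, limma adjusted p = 9.93e-18). It also rose with deltaSAM, by 1.17. For lost the changes were 2.03 with KEE and 1.06 with deltaSAM. Capr, which encodes Caprin, rose by 1.60 with KEE, and spoon rose by 0.73 with deltaSAM. Of these genes named for their change, those given without a reservation kept their call in 24 of 24 alternatives.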

How the data were processed

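The deposited gene table holds 17469 genes in 12 columns of RPM, reads scaled to 1000000 reads of the library, per the file headers; whole reads were recovered from 100% of the values within 0.01. Per the submitters' processing notes, which give no versions, STAR and HTSeq were used with BDGP6 and dm6; the strand setting and the treatment of reads with several sites are not given in the sources used here. The transposon table was not used here. Symbols and coordinates came from RefSeq (Release 6 plus ISO1 MT, the dm6 assembly).

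The plan named a count test for counts and limma for RPM; as the table holds RPM, limma-trend (limma 3.58.1, R 4.3.3) was run on log2(RPM + 1), in a single fit of 4 group means over all 12 libraries, for 8246 genes with at least 1 RPM in at least 3 libraries. Adjusted p-values are Benjamini-Hochberg over all of them, with a threshold of 0.05. Fold changes on this scale understate those of low genes. Alternatives were a pseudocount of 0.1 or 10, a filter at 10 RPM or none, scaling to the reads in genes, fits of only the libraries compared, centring on the median gene, a replicate block, leaving out each library and the 2 libraries that stood apart, and count tests on the recovered reads with edgeR 4.0.16 and DESeq2 1.42.0. In a comparison of 2 groups, several of these alternatives leave the log2 fold change as it is and can move only its p-value. They are the filters, the fit of only the libraries compared, the replicate block, and leaving out a library of another group. Scripts were tested on simulated data.

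Named genes were the 9 members, up to 3 genes per role with the smallest p among those called at 20 RPM or more, and the 2 genes nearest each member, of which 1 for Dcp1 is not reported here. The members and lists were chosen with earlier results of these data known.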

Additional observations from a re-analysis of the deposited data

Results flagged for a closer look

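For 7 of the 9 genes the effect of KEE and the effect of deltaSAM differed in a direct test of the difference (limma, adjusted p under 0.05), with KEE minus deltaSAM in log2 fold change. Over all 8246 tested genes 40.4% passed this test, 29.4% higher and 11.0% lower. Of the 4279 genes with at least 10 RPM in at least 3 libraries, 2010 passed as higher and 866 as lower. The difference was 3.01 for rin, 2.27 for pAbp, 1.76 for Edc3, 0.85 for Dcp1 and 0.77 for Dcp2. It was -0.80 for Smg6 and -0.29 for tral. The rin levels moved in opposite directions, down with deltaSAM and up with KEE, in every library. Reads in genes took 79.5% of the library with KEE and 63.4% with Armi WT, and 58.0% with deltaSAM and 50.2% with Daed WT. The part of this in the differences was not tested beyond the other scalings. Under each of those the differences of rin, pAbp, Edc3, Smg6 and tral passed. That of Dcp1 passed under none of them, and that of Dcp2 only when scaled to the reads in genes.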

How the results depend on the processing

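Over the 9 genes and the named genes of the wider list, 1462 of 1599 recomputed values kept their direction and their side of the threshold, 70 lost a call, 24 gained one and 43 changed sign. Scaled to the reads in genes, the summed level was 4922 RPM with deltaSAM, 5029.9 with Daed WT, 9858 with KEE and 5374 with Armi WT. On that scale 1 of the 9 rose and 3 fell with deltaSAM, 1 fell with KEE, and 1 was higher and 5 lower in Armi WT than in Daed WT, with 12 of the wider list lower there. Of all 9249 genes tested on that scale 962 rose and 2365 fell with deltaSAM, and 1386 fell with KEE. In Armi WT 858 of them were higher and 1504 lower. Centred on the median gene 1 of the 9 fell with KEE, 3 had a positive difference (13 of the wider list), and 5 of the wider list fell with deltaSAM and 2 were lower in Armi WT. Of all 8246 tested genes, centred, 1685 fell with KEE and 1061 had a positive difference. With deltaSAM 923 of them fell, and 417 were lower in Armi WT. With TMM factors 2 of the 9 fell with KEE, 3 had a positive difference (14 of the wider list) and 4 of the wider list fell with deltaSAM. With DESeq2 these counts were 2, 3, 15 and 3, and 7 of the wider list fell with KEE. Of all 8246 tested genes 1979 fell with KEE with TMM factors, 1209 had a positive difference and 1008 fell with deltaSAM. With DESeq2 these all-gene counts were 1671, 1054 and 846. Without a filter 1 of the 9 rose with deltaSAM and 1 had a negative difference, beside 1321 and 863 of all 13600 genes. At 10 RPM or more 4 of the wider list fell with deltaSAM, beside 1080 of all 4279 genes. With the libraries of the comparison alone 1 of the 9 rose with deltaSAM, beside 1149 of all 8246 genes. In Armi WT against Daed WT 2 of the 9 were lower at 10 RPM or more, with TMM factors, edgeR library sizes, the libraries of the comparison alone and the 2 libraries left out, and 3 with DESeq2. Over all genes 474 of 4279 were lower at 10 RPM or more. In the same order as above, 695, 553, 522, 620 and 599 of all 8246 genes were lower in the other settings. The share of higher genes among all calls was 47.8% with deltaSAM and 73.8% with KEE as deposited, 28.9% and 55.0% scaled to the reads in genes, 68.8% and 49.7% centred, 60.7% and 48.5% with TMM factors, and 60.7% and 47.9% with DESeq2.

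Signs changed at uncalled or weakly called values. With deltaSAM, tral was -0.015 and me31B -0.20 scaled to the reads in genes, and me31B was -0.18 without the 2 libraries. Edc3, pcm and Dcp2 with deltaSAM were 0.18, 0.19 and 0.17 centred, 0.083, 0.070 and 0.063 with TMM factors, and 0.046, 0.036 and 0.025 with DESeq2. With KEE, me31B and pcm were -0.11 and -0.31 scaled to the reads in genes, -0.13 and -0.34 centred, -0.21 and -0.41 with TMM factors and -0.21 and -0.42 with DESeq2, and pelo was -0.056 and -0.058 with those tools. In the difference pcm was -0.080 scaled to the reads in genes, and me31B and pcm were -0.36 and -0.53 centred, -0.37 and -0.48 with TMM factors and -0.33 and -0.45 with DESeq2. The cause was not tested.

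With each of the 12 libraries left out in turn, the 9 genes gave 1 to 3 increases with deltaSAM, 1 to 2 negative differences and 1 to 2 lower in Armi WT, where the wider list gave 2 to 4 lower. All 8246 tested genes gave 1287 to 1433 increases with deltaSAM, 830 to 939 negative differences and 371 to 621 lower in Armi WT. The log2 fold changes ranged with deltaSAM from -0.18 to 0.16 for me31B, from -0.10 to 0.095 for pcm and from -0.094 to 0.0019 for Dcp2, and for pcm from -0.068 to 0.14 with KEE and from -0.085 to 0.17 in the difference. Deviations of same-numbered libraries from their group means correlated between -0.0133 and 0.059, so no shared deviation was seen. Whether same-numbered libraries were made together cannot be read from this. With the replicate block tral with deltaSAM had an adjusted p of 0.0504 in limma, and 2 of the 9 were lower in Armi WT, Dcp1 being the one added (adjusted p = 0.0476). Of all 8246 tested genes 549 were lower there with that block. The difference always uses all 12 libraries, so a fit of fewer groups was not run for it. Depth limits Dcp1 and pcm, with 27 to 125 reads in a library; the precision given covers the spread between these libraries only.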

Other observations

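In the wider list of 58 tested genes, 3 were called lower with deltaSAM and higher with KEE, and 4 were called higher with deltaSAM and lower with KEE (limma); over all 8246 tested genes these patterns took 5.32% and 2.91%. The first held Atx2, at -1.01 with deltaSAM and 1.86 with KEE on the log2 scale, tyf, at -0.34 and 1.14, and nonC, the kinase gene of nonsense-mediated decay, at -0.94 and 1.60. The second held Mtr4, at 1.08 and -0.76, brat, at 0.64 and -0.65, orb2, at 0.67 and -0.42, and Patr-1, at 0.31 and -0.97. The gene nonC and the genes brat and orb2, which encode RNA-binding translational repressors, were chosen for this after their values were seen. With TMM factors 2 and 5 genes of the list showed these patterns, beside 2.01% and 6.54% of all tested genes, and centred on the median gene 2 and 6, beside 1.64% and 6.48%. Scaled to the reads in genes the counts were 5 and 4, beside 4.45% and 2.64%, with DESeq2 2 and 6, beside 1.63% and 5.54%, and without the 2 libraries that stood apart 4 and 4, beside 5.78% and 3.19%.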
